A study of Homo sapiens with 6 samples.

Results

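The 10 genes ATR, ATRIP, ATM, CHEK1, CHEK2, WEE1, PKMYT1, CDC25A, CDC25B and CDC25C encode kinases, a kinase partner and phosphatases of the checkpoint that decides whether a cell with damaged or unreplicated DNA goes on through its cycle. They are 10 of the 20461 genes of an RNA-seq table of PANC1 cells, a human pancreatic ductal carcinoma line. The choice was by name as members of 1 pathway, not by a measured value, though with earlier results of these data known. Each was found in the table by its Ensembl identifier, and all 10 passed the filter on low counts. Cells were grown for 24 hours and then kept for 48 hours in vehicle (0.1% DMSO, 2 RNA-seq libraries) or in 50 nM gemcitabine (2 RNA-seq libraries), a nucleoside analogue that blocks DNA synthesis. DNaseI-seq, which marks open chromatin, was done on 1 vehicle and 1 gemcitabine library. Both conditions are the same unmodified line, so the values describe 1 line at 1 dose and 1 time.

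ATR, with its partner ATRIP, is recruited to single-stranded DNA at stalled replication forks, and ATM responds to double-strand breaks. They phosphorylate the effector kinases CHEK1 and CHEK2, which restrain the CDC25 phosphatases. WEE1 and PKMYT1 add inhibitory phosphates to the cyclin-dependent kinases (CDKs), CDC25A, CDC25B and CDC25C take them off, and the balance sets the entry into S phase and mitosis. These steps run through phosphorylation and protein turnover, which RNA-seq and DNaseI-seq do not measure.

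The vehicle libraries held 15153598 and 15766232 fragments assigned to genes, and the gemcitabine libraries 13194535 and 13275474. Of 6 epithelial and ductal markers, 5 reached 1 FPKM (a level set per length of transcript and per depth of library) in at least 1 library, and CDH1 stayed between 0.184 and 0.770 FPKM. The summed level of these 6 was 2364 to 2522 FPKM in vehicle and 2548 to 2622 FPKM after gemcitabine. Of 3 leukocyte markers, CD3E was at 0 and PTPRC was below 0.32 FPKM, and the summed level (10.7 to 10.9 FPKM in vehicle, 20.5 to 24.7 FPKM after gemcitabine) was nearly all CD68. The acinar markers PRSS1, CPA1 and CELA3A and the endothelial marker CDH5 stayed below 0.07 FPKM, and PECAM1 was not matched. Among fibroblast and stellate markers COL1A1 was at 864 to 1100 FPKM and DCN at 3.02 to 6.30 FPKM, while COL1A2 and PDGFRA stayed at or below 0.101 FPKM. The part of CD68 and COL1A1 in the results below was not tested.

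In counts scaled to depth, transcripts of CDC25C and CHEK2 were higher in both gemcitabine libraries than in either vehicle library, and those of WEE1, ATR and CDC25A were lower. These 5 of the 10 genes had an edgeR adjusted p under 0.05, 2 of them higher and 3 lower. Of the 14854 genes tested, 38.5% passed (18.5% higher and 20.0% lower), and among the 8465 genes with at least as many fragments as ATRIP, the scarcest of the 10, 47.3% passed. The share of the checkpoint genes that passed is therefore close to that of other genes. All 5 changes were small, with falls of 1.23-fold to 1.38-fold and rises of 1.34-fold and 1.53-fold. CDC25C alone met 4 criteria for a differentially expressed gene, applied here with the edgeR adjusted p and the edgeR fold. These were adjusted p under 0.05, fold over 1.5, at least 0.1 FPKM in 1 condition and a difference of at least 1 FPKM. They were met by 10.1% of all tested genes and by 8.82% of those 8465. The thresholds come from the study, which used them with its own Cuffdiff run. More genes are called here than the study reports, in both directions, so these calls are not its list. The median log2 fold change was 0.03 over the 10 genes and 0.01 over all tested genes.

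By level per transcript length, CDC25B was the most abundant of the 10 in vehicle (79.9 ± 6.36 FPKM, mean ± SD, n = 2), followed by CHEK2 (53.4 ± 1.69), PKMYT1 (52.6 ± 1.55), WEE1 (42.8 ± 2.99), CHEK1 (31.4 ± 1.25), ATR (21.7 ± 0.856), ATM (19.8 ± 2.35), CDC25A (18.8 ± 0.881), CDC25C (11.1 ± 0.290) and ATRIP (8.29 ± 0.457). The libraries of neighbours overlapped for CHEK2 and PKMYT1, for ATR and ATM, and for ATM and CDC25A. The span ran from the 42.9th percentile of tested genes for ATRIP to the 87.4th for CDC25B. After gemcitabine CDC25B, CHEK2 and PKMYT1 were still the top 3 (89.1 ± 3.27, 64.4 ± 4.73 and 64.2 ± 0.0299 FPKM), and WEE1 stood below CHEK1 (32.5 ± 0.257 against 34.3 ± 1.01 FPKM). ATR, CDC25A, CDC25C and ATM lay together at 15.9 to 17.8 FPKM on average, each overlapping the next in order.

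**Figure D1:**
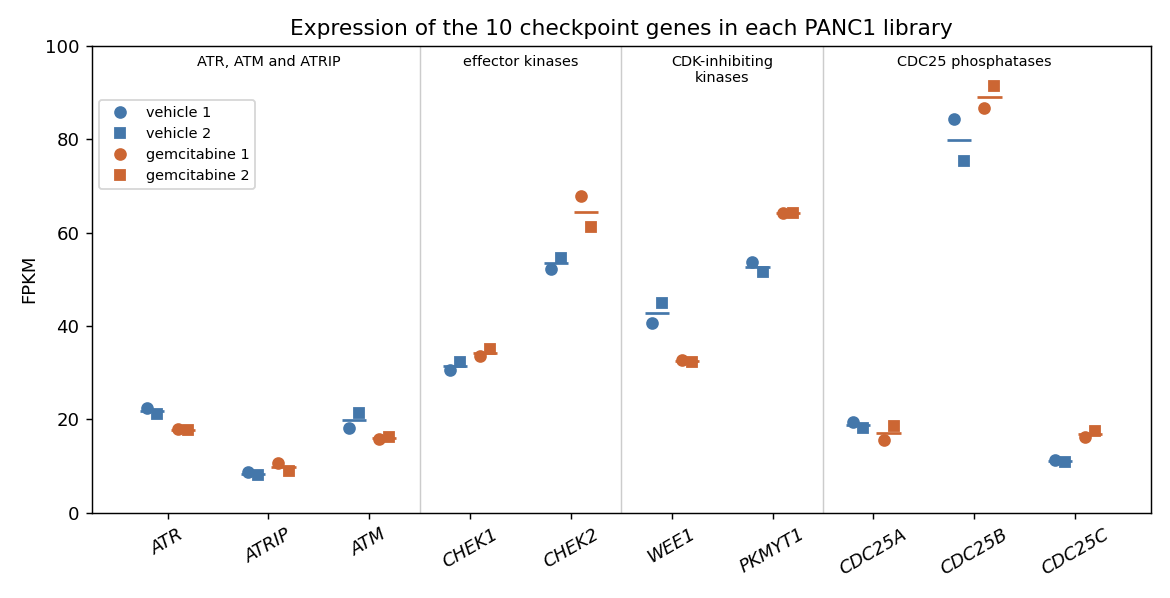
Level of each checkpoint gene in FPKM (linear axis) in 2 vehicle libraries (blue) and 2 gemcitabine libraries (orange), with short lines at the means. Only CDC25A overlaps between conditions (15.6 and 18.5 FPKM after gemcitabine against 18.2 and 19.4 in vehicle). Without overlap, ATR, ATM and WEE1 sit lower after gemcitabine, and ATRIP, CHEK1, CHEK2, PKMYT1, CDC25B and CDC25C higher. Over all tested genes 62.1% do not overlap.

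ATR (ENSG00000175054, chr3:142167849-142297575 in hg19, minus strand), the kinase that answers stalled forks, fell. It had 1412 and 1702 fragments in vehicle and 1158 and 1175 after gemcitabine, or 22.4 and 21.1 against 18.0 and 17.7 FPKM. Both gemcitabine libraries lie below both vehicle libraries on either scale. The log2 fold change was -0.30 ± 0.077 (SE), a 1.23-fold fall with an edgeR adjusted p of 0.00638. The call rests on the vehicle library with more ATR fragments: without vehicle library 2 the log2 fold change was -0.19 with an edgeR adjusted p of 0.196. With library totals in place of TMM scaling it was also -0.19, with an edgeR adjusted p of 0.0626. In bulk RNA, fewer cells in the phase that makes a transcript and less of it per cell cannot be told apart, for ATR or any gene below.

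ATRIP (ENSG00000164053, chr3:48488114-48509044, plus strand), which brings ATR to RPA-coated DNA, had 298 and 293 fragments in vehicle and 284 and 239 after gemcitabine. Scaled to depth these are 20.5 and 19.2 against 20.5 and 17.5 CPM (counts set to a common depth after TMM scaling), which overlap, and the log2 fold change was -0.06 ± 0.112 (edgeR adjusted p = 0.693). On the FPKM scale the order was the opposite, with 8.61 and 7.96 in vehicle and 10.7 and 8.91 after gemcitabine. The annotation places 1448 exon bases of ATRIP in TREX1, an exonuclease gene on the same strand, and all 4 ATRIP counts are fractional before rounding. TREX1 itself had a log2 fold change of 0.04 ± 0.095. No direction is given for ATRIP.

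ATM (ENSG00000149311, chr11:108093771-108239829, plus strand), the double-strand break kinase, also went opposite ways on the 2 scales. Its counts were 385 and 470 in vehicle and 467 and 470 after gemcitabine, which is 26.5 and 30.9 against 33.6 and 34.5 CPM. Its FPKM was 18.1 and 21.4 in vehicle and 15.7 and 16.1 after gemcitabine. The groups are apart on both scales, upward in CPM and downward in FPKM. The log2 fold change of the counts was 0.25 ± 0.096 (edgeR adjusted p = 0.0543), and that of FPKM was -0.31 with limma on log2(FPKM + 0.1), adjusted p = 0.191. FPKM divides a gene's fragments by the lengths of the isoforms they are assigned to, and whether isoform assignment separates the scales was not tested. C11orf65, which shares 124 exon bases with ATM on the opposite strand, had a log2 fold change of -0.02 ± 0.093. The count difference passed without gemcitabine library 1 (0.27, edgeR adjusted p = 0.0256).

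Of the 2 effector kinases, 1 passed. CHEK2 (ENSG00000183765, chr22:29083731-29138410, minus strand), which acts below ATM, rose: 620 and 698 fragments in vehicle against 856 and 772 after gemcitabine, and 52.2 and 54.6 against 67.8 and 61.1 FPKM. Every gemcitabine value is above every vehicle value on both scales. The log2 fold change was 0.42 ± 0.080, a 1.34-fold rise with an edgeR adjusted p of 8.72e-04. Without vehicle library 1 it was 0.38 with an edgeR adjusted p of 0.0529. HSCB, an iron-sulfur cluster co-chaperone gene that shares 293 exon bases with CHEK2 on the opposite strand, had a log2 fold change of 0.30 ± 0.132 (edgeR adjusted p = 0.0897). The counting is not stated to use strand, so reads of such shared bases cannot be told apart.

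CHEK1 (ENSG00000149554, chr11:125495058-125546150, plus strand), the main effector of ATR, did not pass. It had 730 and 751 fragments in vehicle and 604 and 621 after gemcitabine, a log2 fold change of -0.16 ± 0.078 once scaled to depth (edgeR adjusted p = 0.119). In FPKM it went from 30.6 and 32.3 to 33.6 and 35.0, so its direction, like that of ATM, depends on the scale. It shares 53 exon bases with STT3A on the same strand, which had a log2 fold change of -0.18 ± 0.065 (edgeR adjusted p = 0.0390). CHEK2 made up 63.1% and 62.8% of the summed FPKM of the pair in vehicle and 66.9% and 63.6% after gemcitabine. The difference between the changes of CHEK1 and CHEK2 was not tested.

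Of the 2 kinases that inhibit CDKs, 1 passed. WEE1 (ENSG00000166483, chr11:9595217-9615004, plus strand), the nuclear kinase, fell in both gemcitabine libraries: 1439 and 1562 fragments in vehicle against 959 and 1045, or 40.7 and 45.0 against 32.7 and 32.3 FPKM. Its log2 fold change was -0.47 ± 0.073, a 1.38-fold fall with an edgeR adjusted p of 1.68e-04. Leaving out any 1 library kept it between -0.54 and -0.39, with the edgeR adjusted p at most 0.0255. WEE1 thus passed in every fit to the counts, and in none of the 3 limma fits to FPKM, where the adjusted p ran from 0.0603 to 0.0749.

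PKMYT1 (ENSG00000127564, chr16:3018025-3030480, minus strand), the membrane-bound kinase of the pair, had nearly equal counts in all 4 libraries, 831 and 821 in vehicle and 865 and 866 after gemcitabine. Scaled to depth these are 57.2 and 53.9 against 62.3 and 63.6 CPM, and the FPKM values were 53.7 and 51.5 against 64.2 and 64.3. The groups do not overlap on either scale, but the log2 fold change of 0.18 ± 0.074 did not pass (edgeR adjusted p = 0.0661). It did pass without gemcitabine library 1 (0.20, edgeR adjusted p = 0.0394). PKMYT1 shares 1228 exon bases with PAQR4 on the opposite strand, and PAQR4 fell, with a log2 fold change of -0.67 ± 0.082 (edgeR adjusted p = 2.10e-05). It also shares 357 with KREMEN2 on that strand (0.24 ± 0.208), and the part of either gene in the PKMYT1 counts was not tested.

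As a share of their summed FPKM, WEE1 made up 43.1% and 46.6% in vehicle and 33.7% and 33.5% after gemcitabine, while the sum stayed at 94.4 to 96.9 FPKM in all 4 libraries. ATR and ATM summed to 40.5 and 42.6 FPKM in vehicle and 33.7 and 33.8 FPKM after gemcitabine, with ATR at 49.7% to 55.3% of the sum in the 4 libraries. With 2 libraries against 2, an exact permutation test of a share cannot go below p = 0.333, and none was run.

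**Figure D2:**
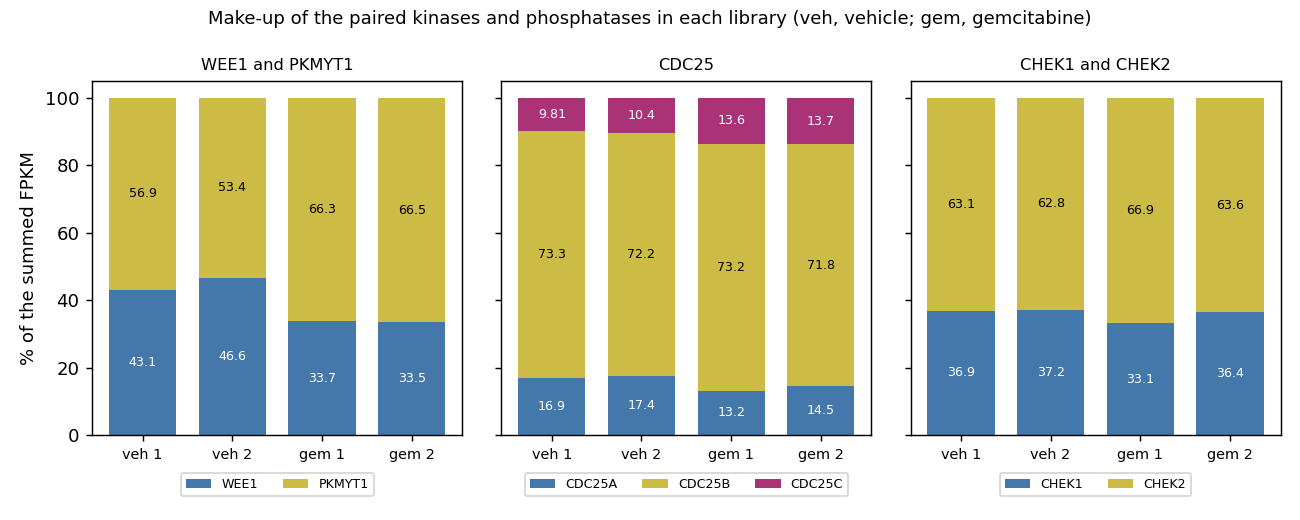
Share of each gene in the summed FPKM of its pair or family, in % (bars stacked to 100), in 2 vehicle (veh) and 2 gemcitabine (gem) libraries. PKMYT1 takes 66.3% and 66.5% after gemcitabine against 56.9% and 53.4% in vehicle, and CDC25C 13.6% and 13.7% against 9.81% and 10.4%.

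The CDC25 phosphatases, which switch CDKs on, showed all 3 outcomes. CDC25C (ENSG00000158402, chr5:137620958-137674044, minus strand), which acts at entry into mitosis, rose most of the 10 genes. It had 333 and 302 fragments in vehicle and 462 and 438 after gemcitabine, or 11.3 and 10.9 against 16.1 and 17.5 FPKM, with no overlap. The log2 fold change was 0.62 ± 0.099, a 1.53-fold rise with an edgeR adjusted p of 2.25e-04, just over the 1.5-fold limit of the study. Without vehicle library 2 it was 0.52 (edgeR adjusted p = 0.0293), and CDC25C then no longer met the fold criterion, which leaves none of the 10 genes meeting all 4. FAM53C, which shares 293 exon bases with CDC25C on the opposite strand, rose too (0.46 ± 0.086, edgeR adjusted p = 7.42e-04), and its part in the CDC25C counts was not tested.

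CDC25A (ENSG00000164045, chr3:48198636-48229907, minus strand), which acts from the start of S phase and is destroyed after CHEK1 phosphorylates it, fell in counts, from 903 and 924 to 673 and 694. In CPM the values were 62.1 and 60.7 against 48.5 and 51.0, which do not overlap. The log2 fold change was -0.30 ± 0.075, a 1.23-fold fall with an edgeR adjusted p of 0.00496. In FPKM, 19.4 and 18.2 against 15.6 and 18.5, the groups overlap. The edgeR adjusted p was 0.0941 without vehicle library 1 and 0.0704 without vehicle library 2, at log2 fold changes of -0.28 and -0.31.

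CDC25B (ENSG00000101224, chr20:3767419-3786768, plus strand), which activates CDK1 at the centrosome, was the most abundant member and had 3141 and 3180 fragments in vehicle and 3106 and 3247 after gemcitabine. Its FPKM was 84.4 and 75.4 against 86.7 and 91.4. The log2 fold change of 0.12 ± 0.067 did not pass (edgeR adjusted p = 0.168), and passed without gemcitabine library 1 (0.17, edgeR adjusted p = 0.0150). CDC25B held 71.8% to 73.3% of the summed CDC25 FPKM in the 4 libraries. CDC25A went from 16.9% and 17.4% to 13.2% and 14.5%, and CDC25C from 9.81% and 10.4% to 13.6% and 13.7%, so that their order within the family changed in gemcitabine library 1.

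Over the 10 genes, the CPM of the conditions did not overlap for 9 (all but ATRIP), as for 69.7% of tested genes, and the FPKM for 9 (all but CDC25A), as for 62.1%. With library totals in place of TMM, 7 members passed, 5 higher (CHEK2, CDC25C, ATM, PKMYT1 and CDC25B) and 2 lower (WEE1 and CDC25A). Over all tested genes 27.4% were then higher and 13.3% lower, and their median rose to 0.12 on the log2 scale. On log2(FPKM + 0.1) that median was 0.12 as well. Relative to it, ATR, ATM, WEE1 and CDC25A lay below and CDC25C, CHEK2, PKMYT1, ATRIP and CDC25B above, with CHEK1 at 0.12.

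**Figure D3:**
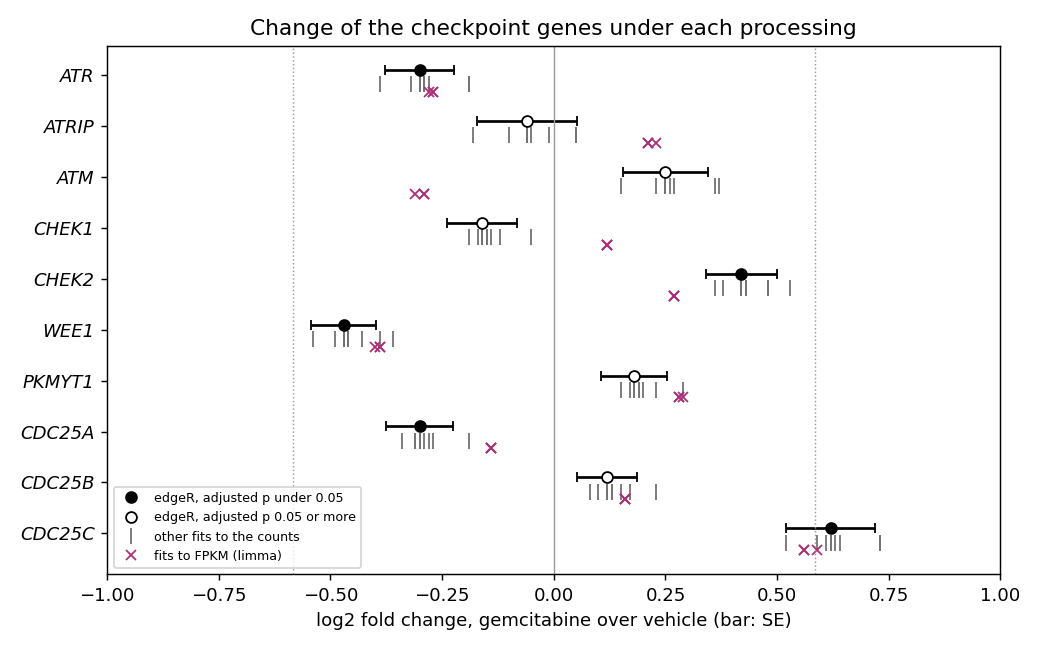
Log2 fold change of each checkpoint gene, gemcitabine over vehicle. Circles with bars give the edgeR estimate and an SE derived from its test statistic (filled where the adjusted p is under 0.05). Ticks give the other fits to counts, crosses the limma fits to FPKM, and dotted lines a 1.5-fold change. ATM, CHEK1 and ATRIP have crosses on the opposite side of 0 from their circles, and WEE1 and CDC25C lie farthest out.

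The other genes of the pathway were read from 8 lists of 65 genes, all tested. Of these, 8 passed with higher and 22 with lower counts after gemcitabine, and 35 did not pass, beside 18.5% higher and 20.0% lower over all tested genes. Their median log2 difference was -0.09. Their median was -0.08 without vehicle library 1, -0.07 without vehicle library 2, -0.07 without gemcitabine library 1 and -0.09 without gemcitabine library 2. DESeq2 gave 7 higher and 14 lower, beside 11.5% higher and 14.5% lower over all tested genes. With library totals the split was 14 higher and 12 lower, beside 27.4% higher and 13.3% lower over all tested genes, whose median moved to 0.12 while that of the 65 moved to 0.02. The lists were chosen with results of these data known and are described by counts only. Of the 65, 3 met the 4 criteria upward and 3 downward, beside 5.69% and 4.42% of all tested genes.

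Among 14 genes that activate ATR (the single-strand binding protein RPA, the clamp loader, the clamp and their partners), 3 rose, 2 fell and 9 did not pass. Over all tested genes 18.5% were higher and 20.0% lower. RHNO1, a partner of the clamp, rose by 0.44 ± 0.079 on the log2 scale (edgeR adjusted p = 5.00e-04) and RPA3, the small RPA subunit, by 0.33 ± 0.087 (edgeR adjusted p = 0.00731). The others that passed, named after their values were seen, were RPA2 (0.22 ± 0.075), RFC4 (-0.26 ± 0.073) and HUS1 (-0.25 ± 0.090). In FPKM the conditions overlapped for RFC4. Of 4 genes that link the fork to CHEK1, TIPIN, a fork protection factor, fell by 0.58 ± 0.106 on the log2 scale (edgeR adjusted p = 6.30e-04) and 3 did not pass.

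In the ATM branch 6 of 10 genes fell and none rose, with a median of -0.29, beside 20.0% lower over all tested genes and 47.3% either way over the 8465 with at least as many fragments as ATRIP. RAD50 and MRE11, subunits of the complex that recruits ATM to breaks, had log2 fold changes of -0.52 ± 0.079 (edgeR adjusted p = 1.24e-04) and -0.46 ± 0.078 (edgeR adjusted p = 3.37e-04). RAD50 had 1193 and 1237 fragments in vehicle and 734 and 828 after gemcitabine, and MRE11 had 985 and 1028 against 643 and 707. In FPKM RAD50 had 29.2 and 27.7 against 21.5 and 27.0, and MRE11 29.7 and 30.3 against 22.6 and 23.4. DESeq2 gave 2 of the 10 lower, beside 14.5% of all tested genes. Library totals gave 2 lower and 2 higher, beside 13.3% and 27.4% of all tested genes. The list median was -0.28 without vehicle library 1, -0.23 without vehicle library 2, -0.22 without gemcitabine library 1 and -0.30 without gemcitabine library 2. Of 5 genes that assemble ATR, ATM and related kinases, 3 fell, TELO2 (-0.24 ± 0.079, edgeR adjusted p = 0.0270), TTI1 (-0.20 ± 0.066, edgeR adjusted p = 0.0239) and, outside the naming rule, RUVBL2 (-0.19 ± 0.070). None of these 3 calls was made with DESeq2 or with library totals, where 14.5% and 13.3% of all tested genes were lower. The median of these 5 genes was -0.19, with -0.12 without vehicle library 1 and -0.17 without vehicle library 2. In FPKM TELO2 (21.4 and 18.7 against 20.1 and 18.9) and RUVBL2 (104 and 91.1 against 96.8 and 88.1) overlapped between conditions. Fewer genes of the ATM and assembly lists passed without either vehicle library, as over all tested genes.

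Among 12 genes that degrade or bind the members, 4 fell, 8 did not pass and none rose, beside the 20.0% lower over all tested genes. The list median was -0.03, with -0.01 without vehicle library 1 and -0.03 without vehicle library 2. With library totals 3 were lower and 1 higher, beside 13.3% and 27.4% of all tested genes. YWHAG, a 14-3-3 protein of the family that binds phosphorylated CDC25 proteins, went from 206 and 206 to 139 and 143 FPKM, a log2 fold change of -0.66 ± 0.066 (edgeR adjusted p = 3.59e-06). The 14-3-3 genes YWHAE (-0.35 ± 0.064) and YWHAZ (-0.26 ± 0.065) were lower as well. The other 14-3-3 genes of the list did not pass, YWHAB (0.01), YWHAH (-0.01), YWHAQ (-0.04) and SFN (0.13). USP7, a deubiquitinase, went from 107 and 110 to 73.8 and 82.7 FPKM (-0.64 ± 0.066, edgeR adjusted p = 4.05e-06).

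Below the checkpoint, CDK1, the mitotic kinase that WEE1 and PKMYT1 inhibit, rose from 149 and 138 to 219 and 246 FPKM (log2 fold change 0.67 ± 0.067, edgeR adjusted p = 3.31e-06). CDK2, named after its values were seen, rose by 0.31 ± 0.065, and the cyclin E genes CCNE2 (-0.50 ± 0.098) and CCNE1 (-0.42 ± 0.098) fell, which leaves 3 of 7 CDK and cyclin genes that did not pass. Of 8 regulators of mitotic entry 2 rose and 3 fell. Beside both of these lists, 18.5% of all tested genes were higher and 20.0% lower. PLK1, the kinase that marks WEE1 for destruction, fell from 169 and 167 to 120 and 117 FPKM (-0.65 ± 0.069, edgeR adjusted p = 5.60e-06). PLK3, a stress-responsive relative, rose from 112 and 120 to 241 and 236 fragments (1.15 ± 0.129, edgeR adjusted p = 9.13e-06). MASTL, a mitotic kinase, was higher by 0.52 ± 0.074, while AURKA (-0.31 ± 0.070) and, outside the naming rule, ARPP19 (-0.31 ± 0.066) were lower in counts. In FPKM both overlapped between conditions. AURKA had 99.2 and 92.4 in vehicle against 80.3 and 94.0 after gemcitabine. ARPP19 had 95.2 and 93.9 against 127 and 86.1, with the higher mean after gemcitabine.

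In the last list, of CDC7 and the p53 arm, 1 of 5 genes rose and 1 fell, beside 18.5% and 20.0% of all tested genes. CDKN1A, the p53 target that encodes the CDK inhibitor p21, had the largest difference of the 65, from 63.6 and 67.9 to 177 and 170 FPKM (log2 fold change 1.29 ± 0.065, edgeR adjusted p = 1.67e-08). DBF4, the activator of CDC7, fell by 0.32 ± 0.077 on the log2 scale (edgeR adjusted p = 0.00480).

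**Figure D4:**
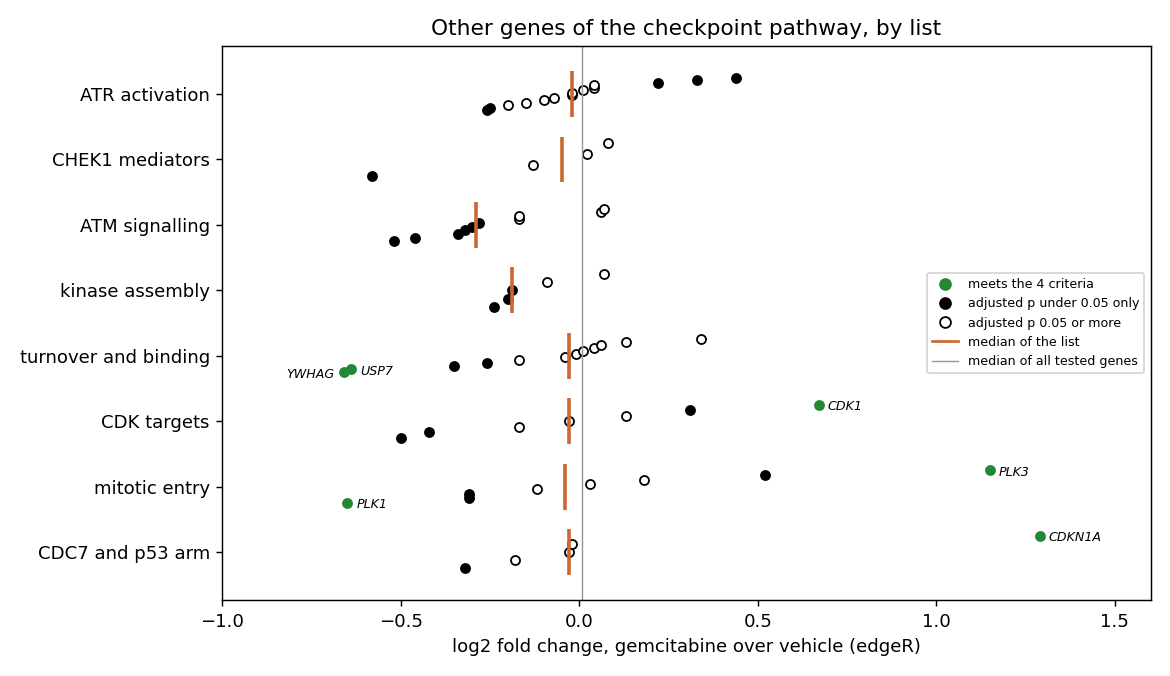
Log2 fold change (edgeR, gemcitabine over vehicle) of the 65 other pathway genes by list, each circle 1 gene: green for the 6 that met all 4 criteria, black for an adjusted p under 0.05 only, open for the rest. Orange bars are list medians, from -0.29 for ATM signalling to -0.02 for ATR activation, and the grey line is the median of all tested genes.

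DNaseI-seq gave 9606 peaks in the vehicle library and 10695 in the gemcitabine library, called separately. A peak within 5000 bases of the 5' end of the gene was listed for 4 members in vehicle (ATR, CHEK2, PKMYT1 and CDC25C) and for 6 after gemcitabine (ATR, ATM, WEE1, PKMYT1, CDC25B and CDC25C). Over the 14512 tested genes placed in the annotation, the shares were 28.2% and 32.6%. With 1 library per condition there is no replicate check, and a peak listed in only 1 library may lie just under the threshold in the other. No peak was listed near ATRIP, CHEK1 or CDC25A in either.

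ATR, PKMYT1 and CDC25C had a peak over the start in both libraries. At ATR it spanned chr3:142296657-142298127 in vehicle (score 63.0) and chr3:142296532-142298442 after gemcitabine (score 70.0), where the score is that of the peak caller and grows as its p-value falls. The PKMYT1 peak scored 65.0 and 78.6 and the CDC25C peak 59.2 and 89.4. A second CDC25C peak, over coding starts inside the gene, scored 85.2 in vehicle and 74.6 after gemcitabine, the opposite order. ATM had a peak over its start only in the gemcitabine list, at chr11:108092953-108094019 with a score of 119, the highest at a start among the 10 genes. WEE1, whose transcript fell, likewise had a peak over its start only after gemcitabine (chr11:9594131-9595633, score 89.6), and both libraries had a second one 6675 and 6953 bases upstream (scores 124 and 81.7). CHEK2, whose transcript rose, had a peak over its 5' end only in vehicle (chr22:29137447-29138441, score 59.3). Both libraries had one 7861 and 7766 bases upstream, and both had one over a coding start farther inside the gene (scores 99.0 and 111), so by any coding start CHEK2 counts in both. The single peak counted for CDC25B lay 4843 bases upstream, in the gemcitabine list. A minimum score of 100 would leave ATM alone.

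**Figure D5:**
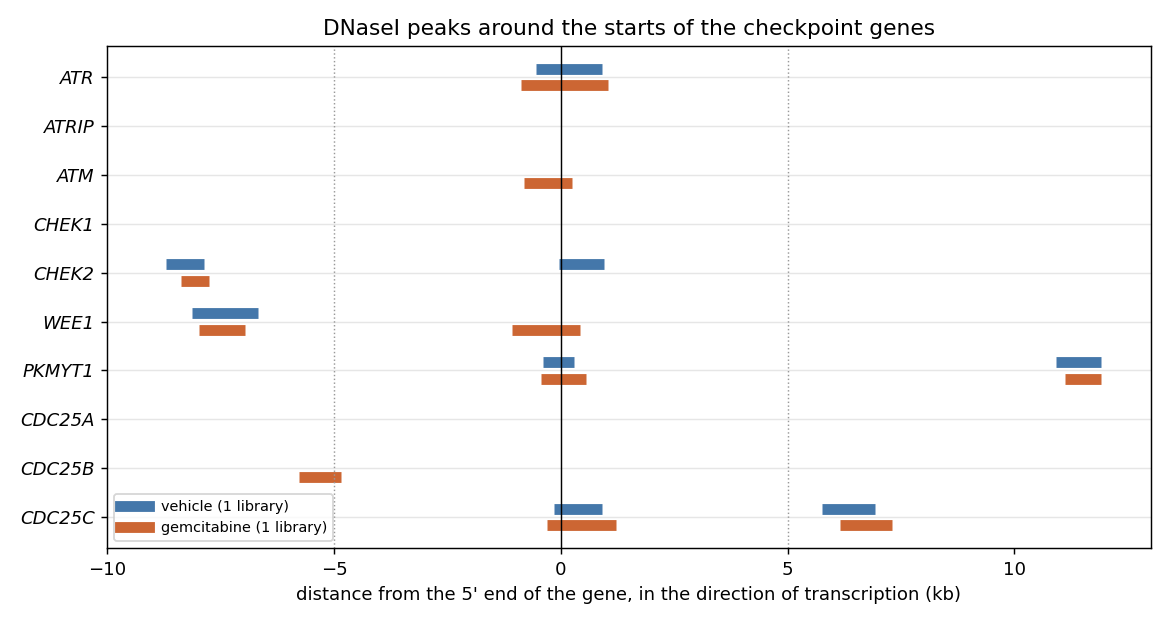
DNaseI peaks from 10 kb upstream to 13 kb downstream of the 5' end of each checkpoint gene, in the direction of transcription, for 1 vehicle (blue) and 1 gemcitabine (orange) library. Bars cover the start in both at ATR, PKMYT1 and CDC25C, in gemcitabine alone at ATM and WEE1, and in vehicle alone at CHEK2, and dotted lines mark 5 kb.

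RefSeq promoter windows, 250 bases before to 50 after a start, were matched for 8 of the 10 genes (18 windows, GRCh38.p14) and searched on both strands for TTTGAA, the cell cycle homology region (CHR) of genes expressed in G2 and mitosis, TTTNGCGC, an E2F-type site, CCAAT and the GC box GGGCGG. WEE1 and PKMYT1 were not matched. Letters of the E2F type were found at CDC25A and CHEK2, in 2 of the 18 windows, and in 1.79% of the 35116 windows of all genes. CHR letters were found at CDC25C and ATM, in 3 of the 18 windows, and in 15.2% of all windows. CCAAT and the GC box, each in 13 of the 18 windows, are in 34.6% and 45.0% of all windows. The windows are not separate promoters, since those of CHEK1 and each pair at CDC25C overlap and can hold the same site. The CHR letters of CDC25C are 1 site in 2 windows. By gene, CCAAT and the GC box were each found at 7 of the 8. CDC25A and CHEK2 share the E2F-type letters and went in opposite directions, so they are shown together with CDC25C, the member that rose most. Capitals mark matches to any of the searched letters on either strand (ATTGG is CCAAT read on the other strand), and all 4 stretches run 5' to 3' on the minus strand.
CDC25A, chr3:48188418-48188537: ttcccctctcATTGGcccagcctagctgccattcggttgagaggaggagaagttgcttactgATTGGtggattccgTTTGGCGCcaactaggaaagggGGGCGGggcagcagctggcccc
CHEK2, chr22:28741821-28741850: ggtggagtttgtatctgcaggTTTAGCGCc
CDC25C, chr5:138331878-138331997: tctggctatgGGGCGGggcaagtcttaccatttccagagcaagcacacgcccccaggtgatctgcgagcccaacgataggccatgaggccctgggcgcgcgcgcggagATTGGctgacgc
CDC25C CHR, chr5:138331820-138331849: tgggctggcggaaggTTTGAAtggtcaacg

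The CDC25A stretch is the 120 bases before the start, with the E2F-type letters beginning at -44, and the CHEK2 stretch is the 30 bases before its start, with the letters beginning at -9. CDC25C has 4 windows in 2 pairs, and both stretches come from the inner pair. Its CHR letters begin at -30 from the more downstream start, with the CCAAT of the opposite strand at -85. Matched base for base to hg19, both inner windows of CDC25C lay wholly inside a DNaseI peak in vehicle and after gemcitabine. The CHEK2 window lay wholly inside the vehicle peak and outside any gemcitabine peak, and the CDC25A window was in no peak of either library. A letter match is a description and no site of binding.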

How the data were processed

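The authors aligned RNA reads to hg19 with TopHat2 2.0.8 and ran Cuffdiff 2.0.2 on the coding genes of Gencode 15. The authors deposited its expected counts (86.8% of values are whole) and its FPKM values, computed from the same fragments by transcript length and library depth. Its 2 columns of scaled fragments were not used. DNaseI peaks, which the authors took from MACS at a p-value of 1e-05, are deposited as positions with a score. The 275 genes with a failed estimate stayed in. Of 20461 identifiers, 19619 were matched to a symbol.

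Expected counts were rounded. The quasi-likelihood test of edgeR 4.0.16 (R 4.3.3, TMM, Benjamini-Hochberg) was run on the 14854 genes whose counts summed to 10 or more. The test prints no SE. The SE given here is the absolute log2 fold change divided by the square root of the F statistic of the test. A count of 3 fragments equals 0.190 to 0.227 CPM. Alternatives were DESeq2 1.42.0, limma 3.58.1 on FPKM, other scalings, filters and thresholds, and each library left out. The study calls the libraries biological replicates. Their index in the table is not tied to the numbers of the labels. Gene positions, exon overlaps and starts come from a Gencode release later than the authors' that was carried over to hg19. The members and lists were chosen with earlier results of these data known. Named genes are all members and, from each list, those that met the 4 criteria plus the 2 largest others that passed. Of the markers looked up, 1 is not reported here.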

Additional observations from a re-analysis of the deposited data

How the results depend on the processing

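With DESeq2, DESeq2-type size factors, no filter on low counts, failed genes left out or adjusted p under 0.01, the same 5 checkpoint genes passed. Library totals gave ATR -0.19 (no longer past 0.05), ATM 0.36, PKMYT1 0.29 and CDC25B 0.23 (now past it) and turned ATRIP to 0.05. With filterByExpr ATM (0.26) and PKMYT1 (0.19) passed as well. With limma on log2(FPKM + 0.1), log2(FPKM + 1) and the latter for genes with a mean of at least 0.1 FPKM, 0, 0 and 1 members passed (CDC25C the last), 0, 0 and 0 met the 4 criteria, and 4, 3 and 9 genes of the wider lists passed. In the same order the log2 differences were ATR -0.28, -0.27 and -0.27, CHEK2 0.27, 0.27 and 0.27, WEE1 -0.40, -0.39 and -0.39, CDC25A -0.14, -0.14 and -0.14, and for CDC25C 0.59 and 0.56 in the fits where it did not pass. The direction turned in these fits for ATRIP (0.23, 0.21 and 0.21), ATM (-0.31, -0.29 and -0.29) and CHEK1 (0.12, 0.12 and 0.12). The cause was not tested. These fits called 870, 532 and 1759 genes in all, against 5726 with edgeR.

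Leaving out each library in turn, where the lone library is assumed to vary like the other group, gave 3 to 8 members past 0.05, 0 to 1 meeting the 4 criteria and 12 to 34 genes of the wider lists. The lowest were those without a vehicle library: 3 members without vehicle 1 (ATR, WEE1 and CDC25C) and 3 without vehicle 2 (CHEK2, WEE1 and CDC25C), with 13 and 12 genes of the wider lists, and 8 members passed without gemcitabine 1. Over all tested genes, too, fewer passed without either vehicle library, and more without either gemcitabine library, than with all libraries. A change in these counts is therefore not particular to the checkpoint genes. Ranges of the log2 fold change were ATR -0.39 to -0.19, ATRIP -0.18 to 0.05, ATM 0.15 to 0.37, CHEK1 -0.19 to -0.12, CHEK2 0.36 to 0.48, WEE1 -0.54 to -0.39, PKMYT1 0.15 to 0.23, CDC25A -0.34 to -0.27, CDC25B 0.08 to 0.17 and CDC25C 0.52 to 0.73. A minimum peak score of 100 left 0 members with a peak in vehicle and 1 after gemcitabine, and with any coding start the counts were 4 and 7 (CHEK2 added). No paired analysis was possible because nothing ties the table's library index to the numbers in the sample titles. The 2 libraries per condition limit all of these values, and DNaseI-seq has 1.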
